A study of Mus musculus with 6 samples.

Results

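The enzymes that write, copy, erase and read DNA methylation were examined in regulatory T cells (Treg cells) with and without BAF60b, a subunit of the SWI/SNF chromatin remodelling complex that is encoded by Smarcd2. The group was a fixed set of gene symbols: Dnmt1, Uhrf1, Dnmt3a, Dnmt3b, Tet1, Tet2, Tet3 and Mbd2. All 8 were found among the 54232 genes of the deposited count table, and all 8 passed the filter on low counts that left 13602 genes for testing. Total RNA was sequenced from GFP-positive Treg cells of mouse spleen, 3 libraries from wild-type mice (WT) and 3 from mice with a conventional BAF60b knockout (KO), in which every cell type carries the deletion. No other treatment, time point or age is named in the labels, and the reporter behind the GFP signal is not named there. Whether the libraries came from separate mice is not stated, so each p-value below reflects the spread among these 6 libraries. Y-linked reads differed between libraries of the same genotype, as given below, so these were not repeats of a single RNA sample. How many mice stand behind each library is not known. WT 2, WT 3 and KO 1 each held both Y-linked reads and Xist, a transcript of female cells, as a mix of female and male cells would.

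DNA methylation in mammals is placed mostly on cytosines that are followed by guanine (CpG). Dnmt3a and Dnmt3b set it on unmethylated DNA, while Dnmt1, guided by Uhrf1 to hemimethylated DNA behind the replication fork, copies it to the new strand. The TET enzymes oxidise 5-methylcytosine, which leads to its loss, and Mbd2 binds methylated CpG and recruits the NuRD repressor complex. In Treg cells this system is known for the demethylated enhancer in Foxp3 that keeps the lineage stable, where TET enzymes act and where Dnmt1 and Mbd2 have been studied.

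Libraries held between 18167053 and 22502804 reads. Smarcd2, the targeted gene, had between 192 and 204 CPM (read counts scaled to library size with TMM factors) in WT and between 57.5 and 59.0 CPM in KO (log2 fold change -1.77, adjusted p = 6.78e-08 by edgeR). All 6 genes listed for Treg cells (Foxp3, Il2ra, Ctla4 and Ikzf2, with the general T cell genes Cd3e and Cd4) were present, at a summed level of 4085 to 4722 CPM before TMM scaling. Markers of monocytes, macrophages and neutrophils summed to between 24.7 and 29.95 CPM in WT and to 35.4, 82.5 and 14.5 CPM in KO 1, 2 and 3, and those of B and plasma cells to between 13.3 and 29.8 CPM over all libraries, so both overlapped between genotypes. NK cell markers were lower in KO (0.889 to 1.99 CPM) than in WT (2.19 to 3.03 CPM), and no marker of these lists was without a read. Of single markers, Cd79b of B cells (log2 fold change -0.69, edgeR adjusted p = 0.0106) and Klrb1c of NK cells (-1.14, 0.0353) fell. The call of Cd79b was lost without WT replicate 1 (0.0571) and without WT 1 and KO 2 (0.0851), and that of Klrb1c in 7 of 16 alternatives (up to 0.225). Jchain of plasma cells lay the other way without passing, with 4.27, 4.91 and 6.95 CPM in WT and 18.7, 18.3 and 4.81 CPM in KO (log2 fold change 1.36, edgeR adjusted p = 0.0961). Markers of dendritic cells summed to 69.2 to 93.7 CPM in WT and 66.2 to 80.4 CPM in KO before TMM scaling, so they overlapped. Of the 2 tested, Zbtb46 had a log2 fold change of 0.77 (edgeR adjusted p = 0.0601) without overlap. The more abundant Bst2 had one of -0.20 (0.357) with overlap. Y-linked transcripts were absent from WT 1 and KO 2, Xist was absent from KO 3, and the other 3 libraries held both. Before TMM scaling, Y-linked transcripts summed to 143 and 242 CPM in WT 2 and 3 and to 301 and 450 CPM in KO 1 and 3. Xist had 455, 254 and 128 CPM in WT 1, 2 and 3 and 87.6, 441 and 0 CPM in KO 1, 2 and 3. The mix of female and male RNA thus differed between libraries. The part of these differences between libraries in the results below was not tested beyond the settings named there.

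Per exon length, the reader Mbd2 and the maintenance enzyme Dnmt1 had the highest levels of the group and Tet1 the lowest. In CPM per kb of exon (RPKM, over the exon union of all annotated transcripts), WT means were 62.3 ± 2.91 for Mbd2, 22.7 ± 0.29 for Dnmt1, 15.4 ± 0.17 for Tet3, 9.71 ± 0.59 for Dnmt3a, 3.56 ± 0.15 for Uhrf1, 3.10 ± 0.13 for Tet2, 2.27 ± 0.11 for Dnmt3b and 0.969 ± 0.068 for Tet1 (SD, n = 3). KO means stood in the same order: 65.1 ± 4.21, 24.7 ± 1.001, 15.2 ± 0.88, 9.83 ± 0.38, 4.63 ± 0.56, 3.08 ± 0.072, 1.65 ± 0.16 and 0.740 ± 0.072 RPKM (SD, n = 3). Within each genotype no 2 neighbours in this order overlapped between libraries. The order of Uhrf1 and Tet2 depends on the length used: with the longest transcript in place of the exon union, Tet2 stood above Uhrf1 in both genotypes (5.70 against 4.23 RPKM in WT and 5.66 against 5.50 in KO), because the union for Tet2 (16870 bases) is much longer than its longest transcript (9179 bases).

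**Figure D1:**
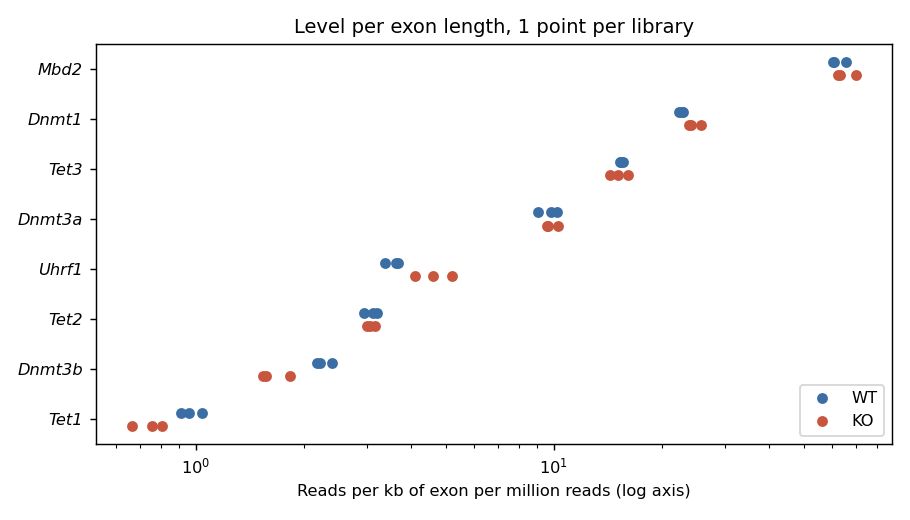
CPM per kb of exon (RPKM, horizontal, log axis) of the 8 genes, 1 point per library, WT in blue and KO in red. Mbd2 lies between 60.4 and 70.0 RPKM in all 6 libraries and Tet1 between 0.663 and 1.04 RPKM.

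Tet3 gave most of the TET message. It made up between 78.7% and 80.4% of the summed RPKM of Tet1, Tet2 and Tet3 in the 6 libraries, and Tet2 between 15.4% and 16.9%. Tet1 contributed between 4.60% and 5.30% in WT and between 3.54% and 4.14% in KO. Among the methyltransferases, Dnmt1 made up 64.3% to 66.6% of the summed RPKM in WT and 68.1% to 68.6% in KO, Dnmt3a 26.4% to 29.4% and 27.1% to 27.5%, and Dnmt3b 6.29% to 6.998% and 4.36% to 4.83%. Thus the least abundant member of each family, Tet1 or Dnmt3b, had a smaller share in each KO library than in any WT library.

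Promoter sequences were compared because CpG is the substrate of this group. RefSeq windows (GRCm38.p6, 250 bases before to 50 after an annotated start) were at hand for 7 of the 8 genes, in 12 windows, and were set beside 32851 windows of all genes, whose median was 7 CpG. Stretches upstream of the first annotated exon base within their window, though not always of the whole gene, are shown for Dnmt3b, Uhrf1 and Tet1, the genes with the largest differences between genotypes, and for Tet2, whose window was the richest in CpG. Each is 5′ to 3′ on the gene's own strand, with every CpG in capitals.
Dnmt3b, chr2:153649299-153649448, plus strand: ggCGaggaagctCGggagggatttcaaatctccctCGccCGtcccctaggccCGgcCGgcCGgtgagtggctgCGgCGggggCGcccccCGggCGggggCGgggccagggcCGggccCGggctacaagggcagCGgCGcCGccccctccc
Uhrf1, chr17:56304163-56304312, plus strand: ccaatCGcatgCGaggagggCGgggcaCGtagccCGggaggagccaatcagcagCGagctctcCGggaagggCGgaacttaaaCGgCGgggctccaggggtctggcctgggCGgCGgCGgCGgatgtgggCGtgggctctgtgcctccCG
Tet1, chr10:62887513-62887574, minus strand: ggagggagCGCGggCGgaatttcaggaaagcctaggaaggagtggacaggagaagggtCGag
Tet2, chr3:133544391-133544540, minus strand: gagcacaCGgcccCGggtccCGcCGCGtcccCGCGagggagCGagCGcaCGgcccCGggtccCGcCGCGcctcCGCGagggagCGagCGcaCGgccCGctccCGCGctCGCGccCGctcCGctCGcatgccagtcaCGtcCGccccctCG
The Tet2 window held 57 CpG, more than 99.85% of all windows had, while the windows of Dnmt3b, Uhrf1 (the downstream of its 2 starts) and Tet1 held 30, 33 and 17 CpG, more than 88.3%, 91.4% and 68.6% of all windows. The window at the upstream start of Uhrf1 held 12 CpG, more than 60.4% of all windows. The lowest count was 2, at the most upstream start of Dnmt1, where 14.1% of all windows had fewer. Which start the cells used cannot be read from gene counts. E2F factors, which drive genes of S phase, are known to bind TTTGGCGC and TTTCCCGC. Searched on both strands, one or the other was in 1.56% of all windows. In this group, only the window at the most downstream start of Dnmt1 held one, as TTTGGCGC. It begins 33 bases after that start, not upstream of it, and is shown here in capitals.
Dnmt1, chr9:20952574-20952601, minus strand: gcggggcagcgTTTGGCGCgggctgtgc

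The comparison of KO with WT asks whether loss of BAF60b changed the message of the methylation machinery. Of the 8 genes, Dnmt3b passed the test as lower in KO, none passed as higher, and 7 did not pass (edgeR's quasi-likelihood test, Benjamini-Hochberg adjusted p under 0.05 over 13602 genes). Over all tested genes 6.45% passed, 3.25% higher and 3.20% lower. Dnmt1, Uhrf1, Dnmt3b and Tet1 did not overlap between the 3 WT and the 3 KO libraries, beside 25.7% of all tested genes, and 4 had an unadjusted p under 0.05, beside 20.4% of all genes. The median log2 fold change of the group was 0.0039 and its median size, regardless of sign, 0.091, against 0.0040 and 0.11 over all tested genes.

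**Figure D2:**
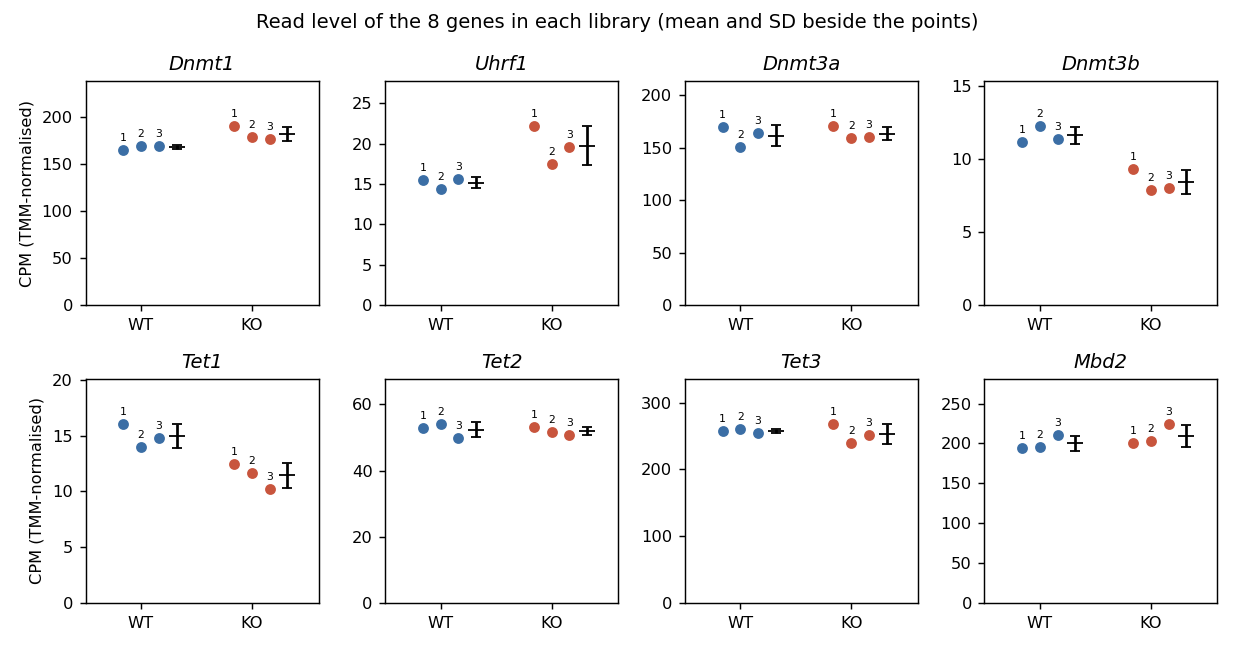
CPM after TMM normalization (vertical, from 0) of each gene in the 3 WT (blue) and 3 KO (red) libraries, numbered by replicate, with mean and SD in black beside them. Dnmt3b and Tet1 lie lower in all KO libraries than in any WT library, Uhrf1 and Dnmt1 lie higher, and the other 4 overlap.

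Dnmt3b (ENSMUSG00000027478, chr2:153649450-153687730, plus strand, mm10), a de novo methyltransferase, was the gene that passed. The WT libraries 1, 2 and 3 gave it 204, 257 and 226 reads, and the KO libraries gave 186, 155 and 181. Scaled, these are 11.2, 12.3 and 11.4 CPM in WT against 9.34, 7.88 and 7.995 CPM in KO. Every KO library lay below every WT library, and the nearest values were those of KO 1 and WT 1. The mean went from 11.6 ± 0.58 to 8.40 ± 0.81 CPM (SD, n = 3 each), so Dnmt3b fell by 27.6%. The log2 fold change was -0.47 (SE 0.11, 95% interval -0.71 to -0.22, edgeR adjusted p = 0.0330). The direction was the same in all 18 alternative settings, with log2 fold changes between -0.55 and -0.43, but 8 of them did not pass. The call was lost in DESeq2 (adjusted p = 0.0552) and in edgeR with a single WT library left out, be it 1, 2 or 3 (adjusted p = 0.0888, 0.134 and 0.0828), or with KO 2 or KO 3 left out (0.0812 and 0.0765). It was lost with the replicate number as a block (0.0605), though the numbers are not known to pair the libraries. It was lost too without both libraries that lack Y-linked reads, WT 1 and KO 2 (adjusted p = 0.186).

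Dnmt3a (ENSMUSG00000020661, chr12:3806007-3914443, plus strand), the other de novo enzyme and the far more abundant one, showed no such difference. It had 170.1, 151 and 164 CPM in WT and 171, 159 and 161 CPM in KO, and the genotypes overlapped. Its log2 fold change was 0.018 (SE 0.057, 95% interval -0.11 to 0.14, edgeR adjusted p = 0.899). The ratio of both genes needs no scaling between libraries: per 100 reads of Dnmt3a there were 6.57, 8.13 and 6.95 reads of Dnmt3b in WT and 5.46, 4.95 and 4.98 in KO. These ratios did not overlap. Dnmt3l, a cofactor without catalytic activity of its own, and the rodent paralog Dnmt3c had at most 3 reads in every library. The short antisense gene Dnmt3aos shares 133 exon bases with Dnmt3a and had 1 read in all libraries together.

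The maintenance pair was higher in every KO library than in any WT library, without passing the test. Uhrf1 (ENSMUSG00000001228, chr17:56303321-56323486, plus strand) had 282, 302 and 310 reads in WT and 442, 343 and 443 in KO, or 15.4, 14.4 and 15.6 CPM against 22.2, 17.4 and 19.6 CPM. All KO libraries were above all WT libraries, with KO 2 the nearest to them. Its log2 fold change of 0.38 (SE 0.10, 95% interval 0.16 to 0.61) missed the threshold (edgeR adjusted p = 0.0546), although the direction held in all 18 alternatives and 6 of them passed. Those were the upper-quartile and library-size scalings (adjusted p = 0.0463 and 0.0440), leaving out the filter (0.0109), keeping genes of at least 2 CPM on average (0.0484), the robust fit (0.0388) and the fit without KO replicate 2 (0.0252). With another library left out the adjusted p was up to 0.196. Without WT 1 and KO 2 the edgeR adjusted p was 0.0980 (log2 fold change 0.47). With the Y-linked share as a covariate it was 0.0958 (0.33).

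Dnmt1 (ENSMUSG00000004099, chr9:20907209-20959888, minus strand) had 165, 169 and 169 CPM in WT and 190.3, 179 and 177 CPM in KO. The genotypes were separate but close, and the difference was small: the log2 fold change was 0.12 (SE 0.047, 95% interval 0.012 to 0.22, edgeR adjusted p = 0.196). It did not pass in any of the 18 alternatives, with adjusted p-values between 0.127 and 0.439. Uhrf1 also stood higher relative to its partner, with 9.35, 8.55 and 9.23 reads per 100 reads of Dnmt1 in WT and 11.7, 9.75 and 11.1 in KO.

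Because Uhrf1 and Dnmt1 work at the replication fork, genes of the cell cycle are given beside them. Of 20 genes of G2 and mitosis, 3 rose, none fell, and 19 had a log2 fold change above 0 (median 0.31). Over all tested genes 3.25% rose and 3.20% fell. Their summed level was 137 to 166 CPM in WT and 192 to 215 CPM in KO, without overlap. Mki67, a marker of cycling cells, had 53.1, 42.5 and 45.8 CPM in WT and 73.1, 76.6 and 68.9 CPM in KO (log2 fold change 0.63, edgeR adjusted p = 0.00219). The others were Top2a, a topoisomerase that untangles chromosomes (0.53, 0.00440), and Kif11, a spindle motor (0.64, 0.0189). Mki67 and Top2a passed in all 18 alternatives, and Kif11 lost its call in 6: with a single WT library, KO 1 or KO 2 left out, and without WT 1 and KO 2 (edgeR adjusted p up to 0.178). Of 26 genes of DNA replication and S phase, 2 rose, Ccne1 (log2 fold change 0.73) and E2f2 (0.38), and none fell, beside 6.45% of all tested genes called. The call of Ccne1 was lost without WT replicate 1 or KO replicate 1 (edgeR adjusted p up to 0.0531), and that of E2f2 without any single WT library (up to 0.124). The summed level of these 26 genes overlapped between genotypes, with 898 to 927 CPM in WT and 920 to 953 CPM in KO. Mcm2, a subunit of the replicative helicase, had a log2 fold change of -0.17 (edgeR adjusted p = 0.172) and passed as lower without KO replicate 1 (0.0492). Pcna, the sliding clamp that holds Dnmt1 at the fork, had one of -0.050 (0.710), which was 0.0048 without KO replicate 3. The part of the cell cycle in the difference of Uhrf1 was not tested, and in bulk RNA more cells of a kind and more RNA per cell cannot be told apart.

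**Figure D3:**
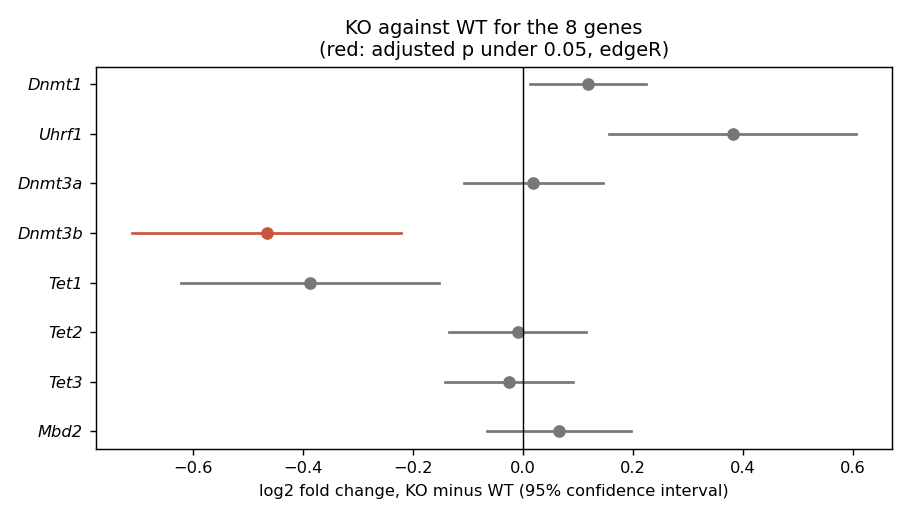
Log2 fold change, KO minus WT (horizontal), with its 95% confidence interval for the 8 genes, red where the adjusted p was under 0.05. Dnmt3b is at -0.47 and Tet1 at -0.39, Uhrf1 is at 0.38, and the intervals of Dnmt3a, Tet2, Tet3 and Mbd2 span 0.

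Tet1 (ENSMUSG00000047146, chr10:62804570-62908996, minus strand) had the largest difference of the TET genes. It had 294 reads in each WT library and 248, 229 and 232 reads in KO, or 16.1, 14.0 and 14.8 CPM against 12.4, 11.6 and 10.2 CPM. Every KO library was below every WT library. The log2 fold change of -0.39 (SE 0.11, 95% interval -0.62 to -0.15) did not pass (edgeR adjusted p = 0.0593). Its direction held in all 18 alternatives, of which 2 passed, no filter (adjusted p = 0.0160) and the robust fit (0.0473). With 1 library left out the adjusted p was between 0.0579 and 0.198. Without WT 1 and KO 2 the edgeR adjusted p was 0.276 (log2 fold change -0.35). With the Y-linked share as a covariate it was 0.104 (-0.34). Per 100 reads of Tet3 there were 6.24, 5.38 and 5.81 reads of Tet1 in WT and 4.63, 4.86 and 4.07 in KO, again without overlap.

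Tet2 and Tet3, the TET enzymes that T cells are known to rely on, lay near 0. Tet3 (ENSMUSG00000034832, chr6:83362373-83459084, minus strand) had 258, 261 and 255 CPM in WT and 269, 239.5 and 252 CPM in KO, so the WT values fell inside the KO range. Its log2 fold change was -0.026 (SE 0.052, 95% interval -0.14 to 0.090, edgeR adjusted p = 0.840). Tet2 (ENSMUSG00000040943, chr3:133463679-133545139, minus strand) had 52.9, 54.2 and 49.9 CPM in WT and 53.3, 51.7 and 50.8 CPM in KO, with a log2 fold change of -0.010 (SE 0.056, 95% interval -0.14 to 0.11, edgeR adjusted p = 0.945). Neither interval reaches a fall as large as the estimate for Tet1. The sign of both genes turned under some settings.

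Mbd2 (ENSMUSG00000024513, chromosome 18), the reader, had 194, 195 and 211 CPM in WT and 200.3, 203 and 225 CPM in KO. The libraries overlapped, and library 3 was the highest of each genotype. The log2 fold change was 0.065 (SE 0.059, 95% interval -0.067 to 0.20, edgeR adjusted p = 0.603). Of the 12 subunits of the NuRD complex, 1 rose and 1 fell, beside 6.45% of all tested genes called. Chd3, a remodelling ATPase of the complex, had the highest CPM of the subunits, not scaled to length. It had 1303, 1347 and 1252 CPM in WT and 1519, 1458 and 1679 CPM in KO (log2 fold change 0.25, edgeR adjusted p = 0.0365). Gatad2a, which links MBD proteins to the ATPase, had 136, 138 and 148 CPM in WT and 128, 119 and 120.3 CPM in KO (log2 fold change -0.20, edgeR adjusted p = 0.0464). Neither gene overlapped between genotypes. Both calls were lost without any single WT library and without KO replicate 3, that of Chd3 also without KO replicate 1 and with the Y-linked share as a covariate (adjusted p = 0.0588), and that of Gatad2a also without KO replicate 2 and under upper-quartile scaling (0.0627). The highest adjusted p with 1 library left out was 0.141 for Chd3 and 0.154 for Gatad2a.

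**Figure D4:**
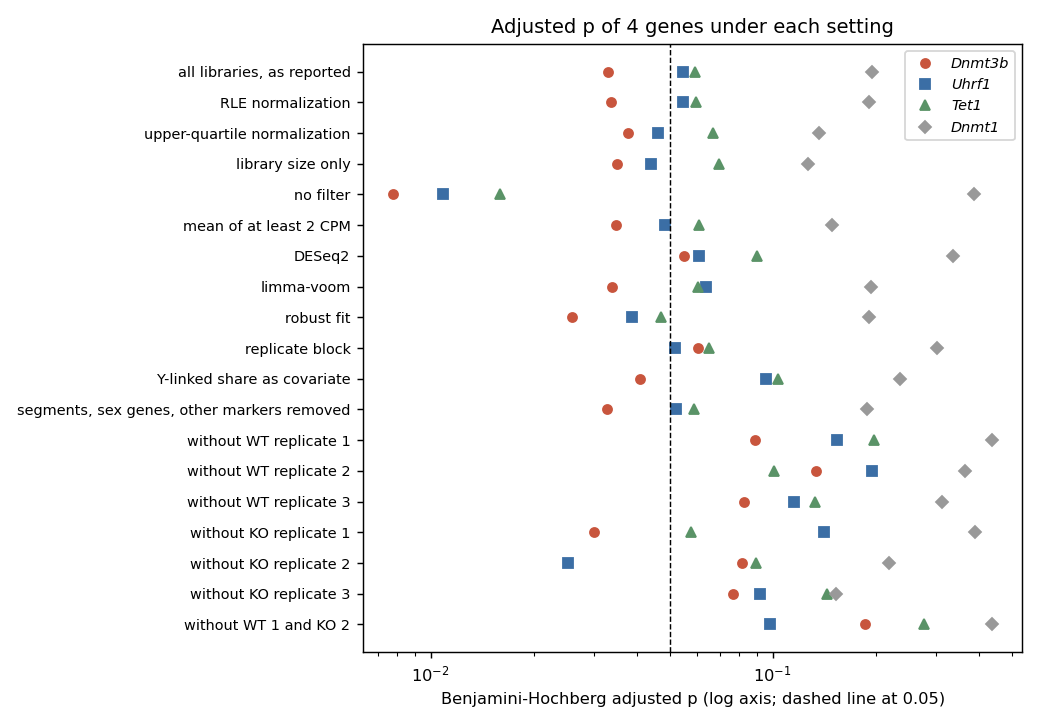
Benjamini-Hochberg adjusted p (horizontal, log axis) of Dnmt3b, Uhrf1, Tet1 and Dnmt1 under each setting (vertical), with a dashed line at 0.05. Dnmt3b lies between 0.0078 and 0.186, Uhrf1 between 0.011 and 0.196, and Dnmt1 is above 0.05 in every setting.

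The genes that work with these enzymes mostly did not pass. Among 10 tested partners of maintenance methylation (such as Uhrf2, Usp7, Hells and Ezh2), 8 de novo relatives and associated histone methyltransferases, 9 other methyl-CpG readers, 14 genes of base excision after oxidation and 11 CXXC proteins and TET partners, 0 passed in edgeR, DESeq2 or limma-voom. At an unadjusted p under 0.05 by edgeR there were 0, 0, 2, 0 and 1 of them. Their median log2 fold changes were -0.014, 0.0070, 0.033, -0.016 and 0.064, against 0.0040 over all genes. Above 0 lay 4 of 10, 5 of 8, 6 of 9, 6 of 14 and 9 of 11. The last list summed to 2175 to 2236 CPM in WT and 2280 to 2468 CPM in KO before TMM scaling, without overlap. After scaling it just overlapped (2204 to 2244.3 and 2243.7 to 2453 CPM). The smallest p of each list belonged to Ezh2 (log2 fold change 0.10, edgeR adjusted p = 0.357), Dmap1 (-0.18, 0.282), Zbtb4 (0.13, 0.151), Parp1 (-0.093, 0.284) and Oga (0.13, 0.107). Oga removes the sugar that Ogt, a partner of the TET enzymes, attaches to proteins. It had 338, 343 and 341 CPM in WT and 371, 369.7 and 379.97 CPM in KO, without overlap.

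Enzymes that supply the small molecules of the system held 2 further falls, and 3.20% of all tested genes fell. Dnmt enzymes take their methyl group from S-adenosylmethionine, and of 14 tested genes of the methionine and folate cycles 1 fell and none rose (median log2 fold change -0.032). Mthfd2, a mitochondrial folate enzyme, had 54.6, 56.4 and 61.5 CPM in WT and 44.3, 49.0 and 47.0 CPM in KO (log2 fold change -0.30, edgeR adjusted p = 0.0247). Its call was lost without any single WT library and without KO replicate 1 (highest adjusted p = 0.0914). TET enzymes need 2-oxoglutarate, and of 16 tested genes that make or use it or its competitors 1 fell and none rose, with 13 below 0 (median -0.038). That gene was Idh2, which makes 2-oxoglutarate in mitochondria. It fell from 26.8, 23.8 and 27.4 CPM in WT to 17.2, 17.8 and 16.8 CPM in KO, without overlap. The log2 fold change was -0.59 (SE 0.081, edgeR adjusted p = 0.00305), and it passed in all 18 alternatives. Idh1, its cytosolic counterpart, had a log2 fold change of 0.15 (edgeR adjusted p = 0.509).

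**Figure D5:**
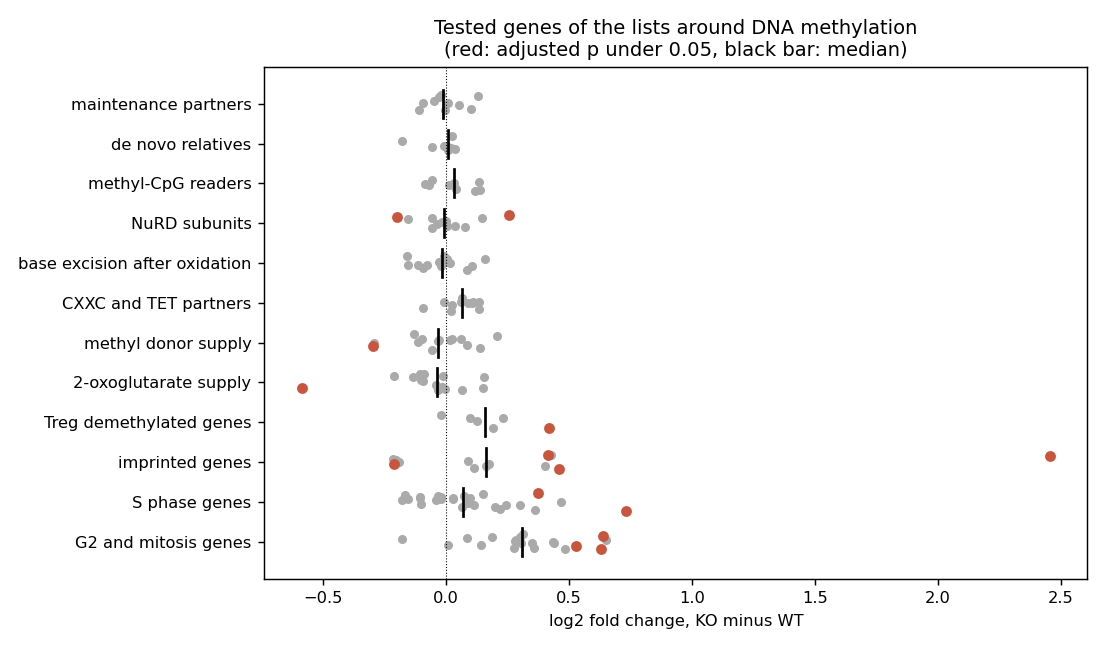
Log2 fold change, KO minus WT (horizontal), of each tested gene in 12 lists around DNA methylation and the cell cycle (vertical), red where the adjusted p was under 0.05, with a black bar at each list's median. Most lists centre near 0, the median of G2 and mitosis genes is 0.31, Idh2 stands at -0.59, and the farthest point is the imprinted gene Dlk1 at 2.46.

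Genes whose Treg-specific regions are known to be demethylated were read out last, since their methylation was not measured here. Of 6 such genes Ikzf2, which encodes Helios, rose, none fell and 5 did not pass, beside 6.45% of all tested genes called. Above 0 lay 5 of the 6, with a median log2 fold change of 0.16 against 0.0040 over all genes. Between genotypes 3 did not overlap, beside 25.7% of all genes. Ikzf2 had 706, 655 and 633 CPM in WT and 819, 912 and 931 CPM in KO (log2 fold change 0.42, edgeR adjusted p = 0.00527). Ikzf4, which encodes the related factor Eos, had 143, 138 and 135 CPM in WT and 151, 160.04 and 164 CPM in KO. Its libraries did not overlap either, and its log2 fold change of 0.19 missed the threshold (edgeR adjusted p = 0.0536). Foxp3 had 559, 563 and 549 CPM in WT and 589, 603 and 594 CPM in KO, also without overlap (log2 fold change 0.095, edgeR adjusted p = 0.253). The libraries of Tnfrsf18, Ctla4 and Il2ra overlapped. Their log2 fold changes were 0.23, 0.13 and -0.023 (edgeR adjusted p = 0.349, 0.468 and 0.834). Without WT 1 and KO 2, Idh2 and Ikzf2 kept their calls (edgeR adjusted p = 0.0492 and 0.0456), while Chd3, Gatad2a, Mthfd2, Ccne1 and E2f2 lost theirs (0.113, 0.184, 0.0738, 0.0943 and 0.145).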

How the data were processed

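The authors deposited 1 table of whole-number read counts, unnormalized, for 6 libraries of total RNA. HISAT2 2.1.0, fastp 0.23.2, Picard, DESeq2 1.34.0 and the build mm10 are listed in the submitters' processing notes. Neither the read counter nor its strand setting nor the annotation release is named in the labels or the notes. Genes were kept by filterByExpr (minimum count 10, minimum total 15), scaled by TMM and tested with edgeR 4.0.16 (R 4.3.3) without a block over all 13602 genes. The SE is the size of the log2 fold change over the square root of F. A count of 0 allows up to 3 counts, 0.133 to 0.165 CPM per library, counting error only. Exon lengths came from GENCODE M21 (the same build and gene spans) and promoters from RefSeq. Spreadsheet dates were restored to 27 symbols, and Oga was matched as Mgea5. Pairs of libraries differed beyond sampling noise (chi-square per degree of freedom at least 5.03). The steps were tested on simulated data, where the share of false calls was above the nominal rate of the adjusted p threshold, so calls near the threshold are less certain than their adjusted p states.

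The 8 genes and all gene lists were chosen with earlier results of these data known. Named genes are the 8, Smarcd2, called list genes by adjusted p (at most 6 per list) or else the smallest p, the 2 closest patterns per gene among genes of at least 10 CPM, Mki67, Pcna and Mcm2; 1 gene under this rule is not reported here. Idh1, Ikzf4, Jchain, Zbtb46, Bst2, Foxp3, Tnfrsf18, Ctla4, Il2ra, Dnmt3l, Dnmt3c and the list examples without values were added after values were seen. The 18 alternatives cover scaling, filters, DESeq2 1.42.0, limma-voom (limma 3.58.1), a robust fit, a replicate block, a covariate for Y-linked reads, a table without antigen receptor segments, Xist, Y-linked genes and other cells' markers, each library left out, and, chosen after seeing the data, the removal of WT 1 and KO 2 together.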

Additional observations from a re-analysis of the deposited data

How the results depend on the processing

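Over all genes 877 were called, and between 738 and 990 were with other scalings, tools, covariates or a higher filter. The count was 1624 with no filter (24676 genes tested), 344 to 848 with 1 library left out and 186 without WT 1 and KO 2. Within the group of 8, 1 gene was called. The count was 2 under upper-quartile scaling, library size only and a mean of at least 2 CPM, 3 with no filter and in the robust fit, 0 in DESeq2, 0 without WT 1 and KO 2, and between 0 and 1 with 1 library left out, when Uhrf1 took the place of Dnmt3b without KO replicate 2.

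Dnmt3b kept its direction and lost its call in DESeq2 (log2 fold change -0.47), without WT 1 and KO 2 (-0.46) and without any WT library, KO 2 or KO 3. Its values with 1 library left out were -0.55 to -0.43, the first of them without KO 1, where the call was kept. Uhrf1 passed with values of 0.40 (upper quartile), 0.39 (library size only), 0.37 (no filter), 0.39 (mean of at least 2 CPM) and 0.38 (robust fit), and its values with 1 library left out were 0.29 to 0.46. Tet1 passed with -0.40 (no filter) and -0.39 (robust fit). Signs near 0 turned for Dnmt3a (-0.033 to 0.051 with 1 library left out), for Tet2 (0.0047 under upper-quartile scaling, 0.00053 with library size only, 0.00052 with the Y-linked covariate, -0.045 to 0.012 with 1 library left out), for Tet3 (0.0079 without WT 1 and KO 2, -0.071 to 0.0089 with 1 library left out) and for Pcna (-0.097 to 0.0048 with 1 library left out). The cause of these changes was not tested.

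The labels number libraries 1 to 3 in each genotype without saying that numbers pair them, so they were not treated as pairs. Deviations of same-numbered libraries from their genotype mean correlated at -0.396, -0.194 and 0.306. Within a genotype these deviations depend on each other, so they do not settle whether libraries were paired. The highest correlation between a WT and a KO library was 0.601, for WT 1 and KO 2, the libraries that lack Y-linked reads. Its cause was not tested. With the replicate block 738 genes and 0 of the 8 were called, the value of Dnmt3b being -0.47 (adjusted p = 0.0605). Chd3 and Gatad2a lost their calls as well (0.1004 and 0.0880).

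Lengths by the longest transcript raised WT levels of Dnmt3a from 9.71 to 16.7 RPKM, of Tet2 from 3.10 to 5.70, of Tet3 from 15.4 to 23.6 and of Mbd2 from 62.3 to 102.5. Depth limits the rarer genes: Dnmt3b, Tet1 and Uhrf1 rest on 155 to 443 reads per library.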

Other observations

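Genes that DNA methylation is known to silence or to mark by parent of origin were listed as well. Of 23 germline genes that promoter methylation keeps silent in somatic cells, 10 had no read in any library and 18 had at most 3 reads in every library. Their summed level was 6.56 to 8.31 CPM in WT and 6.56 to 9.97 CPM in KO before TMM scaling, so the genotypes overlapped. Only 4 passed the filter, 0 were called by edgeR, DESeq2 or limma-voom, and 1 had an unadjusted p under 0.05. That gene was Piwil2, with 1.20, 1.002 and 1.41 CPM in WT and 0.301, 0.813 and 0.398 CPM in KO (log2 fold change -1.26, edgeR adjusted p = 0.0976).

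Of 28 imprinted genes 13 were tested, 3 rose and 1 fell, beside 6.45% of all tested genes called. Of the 13, 6 did not overlap between genotypes, beside 25.7% of all genes, and the median log2 fold change was 0.16 against 0.0040 over all genes. Inpp5f, a phosphoinositide phosphatase, had 139, 139 and 136 CPM in WT and 187, 190 and 175 CPM in KO (log2 fold change 0.41, edgeR adjusted p = 0.00126), and passed in all 18 alternatives. Plagl1, a zinc finger factor, rose by 0.46 on the log2 scale, and lost its call only without WT 1 and KO 2 (edgeR adjusted p = 0.0815) among the 18. Dlk1 had 1, 4 and 4 reads in WT and 16, 13 and 25 reads in KO (log2 fold change 2.46, edgeR adjusted p = 0.0151). It did not pass when WT 1 or WT 2 was left out (0.0726 and 0.0679), nor without both WT 1 and KO 2 (0.0851). Peg13 had a log2 fold change of -0.21 (edgeR adjusted p = 0.0473) and passed in 4 of the 18 alternatives. Reads of the parental alleles are not told apart in gene counts, and neither are the transcripts of a gene. Whether the reads counted for Inpp5f or the other listed genes came from imprinted transcripts was not measured.

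The genes of at least 10 CPM whose log2(CPM + 1) ran closest to each member over the 6 libraries were Calhm2 and Rhof for Dnmt1, Ifnar2 and Sept11 for Uhrf1, Tbl2 and Ccl5 for Dnmt3a, Trappc10 for Dnmt3b, Adprh and Ngly1 for Tet1, Gpn2 and Dph7 for Tet2, Zfp292 and AI314180 for Tet3, and Arpp19 and Taf15 for Mbd2. Pearson's r lay between 0.974 and 0.997, as a description only: over so few libraries between 17 genes (Dnmt3a) and 435 genes (Dnmt3b) had an r above 0.9 with a member.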
